A study of Equus caballus with 15 samples.

Results

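The ATF4 program of the amino acid stress response was examined in equine macrophages as a list of 51 genes, chosen by symbol from ATF4 and the genes it is known to act on in amino acid synthesis, amino acid transport and tRNA charging. Of these, 50 were found among the 16932 genes of the table, and CBS was not analysed here. Levels are in CPM, the reads on a gene scaled by the library's total, and 1 read was worth 0.0209 to 0.0352 CPM. The mean over the 15 libraries reached 1 CPM for 49 members, and these were tested among 11628 genes in all. STC2, a secreted glycoprotein, had a mean under 1 CPM and is given by its values only. The rule itself uses no measured value, but it was set with earlier results of these data known, so the members' counts are not independent evidence. Each test is that of a single gene within the fit of all genes.

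The integrated stress response begins with kinases that phosphorylate the translation initiation factor eIF2, among them EIF2AK4 (GCN2), which senses uncharged tRNA, and EIF2AK3 (PERK), which senses unfolded protein in the endoplasmic reticulum. Most translation then slows, while translation of the ATF4 message rises because of short reading frames upstream of its coding sequence, so ATF4 activity can change without its mRNA. ATF4 drives genes that make, import and charge amino acids, together with feedback genes such as TRIB3 and PPP1R15A, and in activated macrophages serine and glycine synthesis and amino acid import are known to feed cytokine production.

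Macrophages were grown from peripheral blood mononuclear cells of a pair of horses in 5 days of M-CSF at 30 ng/ml, in medium with fetal bovine serum and non-essential amino acids, and polyadenylated RNA was sequenced from 5 conditions with 3 libraries each. Untreated macrophages received neither cytokine nor orthobiologic therapy (OT), and the IL-1ß group received IL-1ß at 10 ng/ml. The MSC-CM, PRP lysate and ACS groups received the same IL-1ß together with an OT at 25% of the medium, namely conditioned medium of mesenchymal stromal cells, a lysate of platelet rich plasma, or autologous conditioned serum. Treatment lasted 24 h, and the study's descriptions differ on whether washed cells then spent a further 24 h in plain medium before RNA was collected. Each OT was prepared from 3 donors, 1 for each library, and the methods name the same 3 horses as donors for every OT, whereas the study describes the untreated and IL-1ß libraries as technical replicates. The p-values therefore measure the spread between these libraries, which may be technical. There was no group with an OT but no IL-1ß, nor one with plain medium in place of the OT, so an OT and the smaller share of growth medium that came with it cannot be told apart. By the methods MSC-CM was the supernatant of cells kept in growth medium, whereas PRP lysate and ACS were made from blood. In comparisons between OTs this difference of base and the OT itself cannot be told apart either.

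Of the 50 listed members, 10 overlap another listed gene, and for DDIT3, MARS1, GPT2, SLC6A9 and GDF15 this is stated where they are described. The others are ALDH18A1, EIF2AK4, LARS1, NARS1 and XPOT. Each library held between 28410734 and 47894068 reads on genes. IL-1ß replicate 3 stood apart, at -103 on a first principal component that held 55.4% of the variance, with PRP lysate replicate 1 next at -51.7, and members whose call changed without IL-1ß replicate 3 are given with their values without it. The macrophage markers (CD68, CD14, CSF1R and 7 others) were all expressed, with sums of 4491 to 6563 CPM in untreated, 3799 to 6662 CPM in IL-1ß, 4528 to 5557 CPM in MSC-CM, 2281 to 4473 CPM in PRP lysate and 3863 to 5175 CPM in ACS libraries. The 7 T cell markers were also detected, at sums of 639 to 942 CPM in untreated, 892 to 1713 CPM in IL-1ß, 1257 to 1359.5 CPM in MSC-CM, 803 to 1797 CPM in PRP lysate and 769 to 990.3 CPM in ACS libraries. In limma, 3 of the 10 macrophage markers (AIF1, CD163 and MARCO) were lower with PRP lysate than with IL-1ß, beside 2.02% of all genes. Against IL-1ß, 2 of the 10 (AIF1 and CD163) were lower with ACS, beside 0.98% of all genes. Of the 7 T cell markers, 0 passed the test in any comparison. The median log2 fold change of the T cell markers was 0.62 for IL-1ß against untreated, with 7 of 7 above 0 where 43.1% of all genes were, and -0.06 for PRP lysate, -0.43 for ACS and 0.18 for MSC-CM against IL-1ß. With ACS 7 of 7 lay below 0. The median of the macrophage markers was -0.61 with PRP lysate, with 9 of 10 below 0, and -0.25 with ACS, with 7 of 10 below 0, beside 0.11 and 0.13 over all genes tested. With MSC-CM against IL-1ß it was -0.23, with 7 of 10 below 0 and 0 called, beside 0.16 over all genes tested. The part of cell composition in the results that follow was not tested, and in bulk RNA fewer cells of a type and less RNA per cell cannot be told apart.

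**Figure D1:**
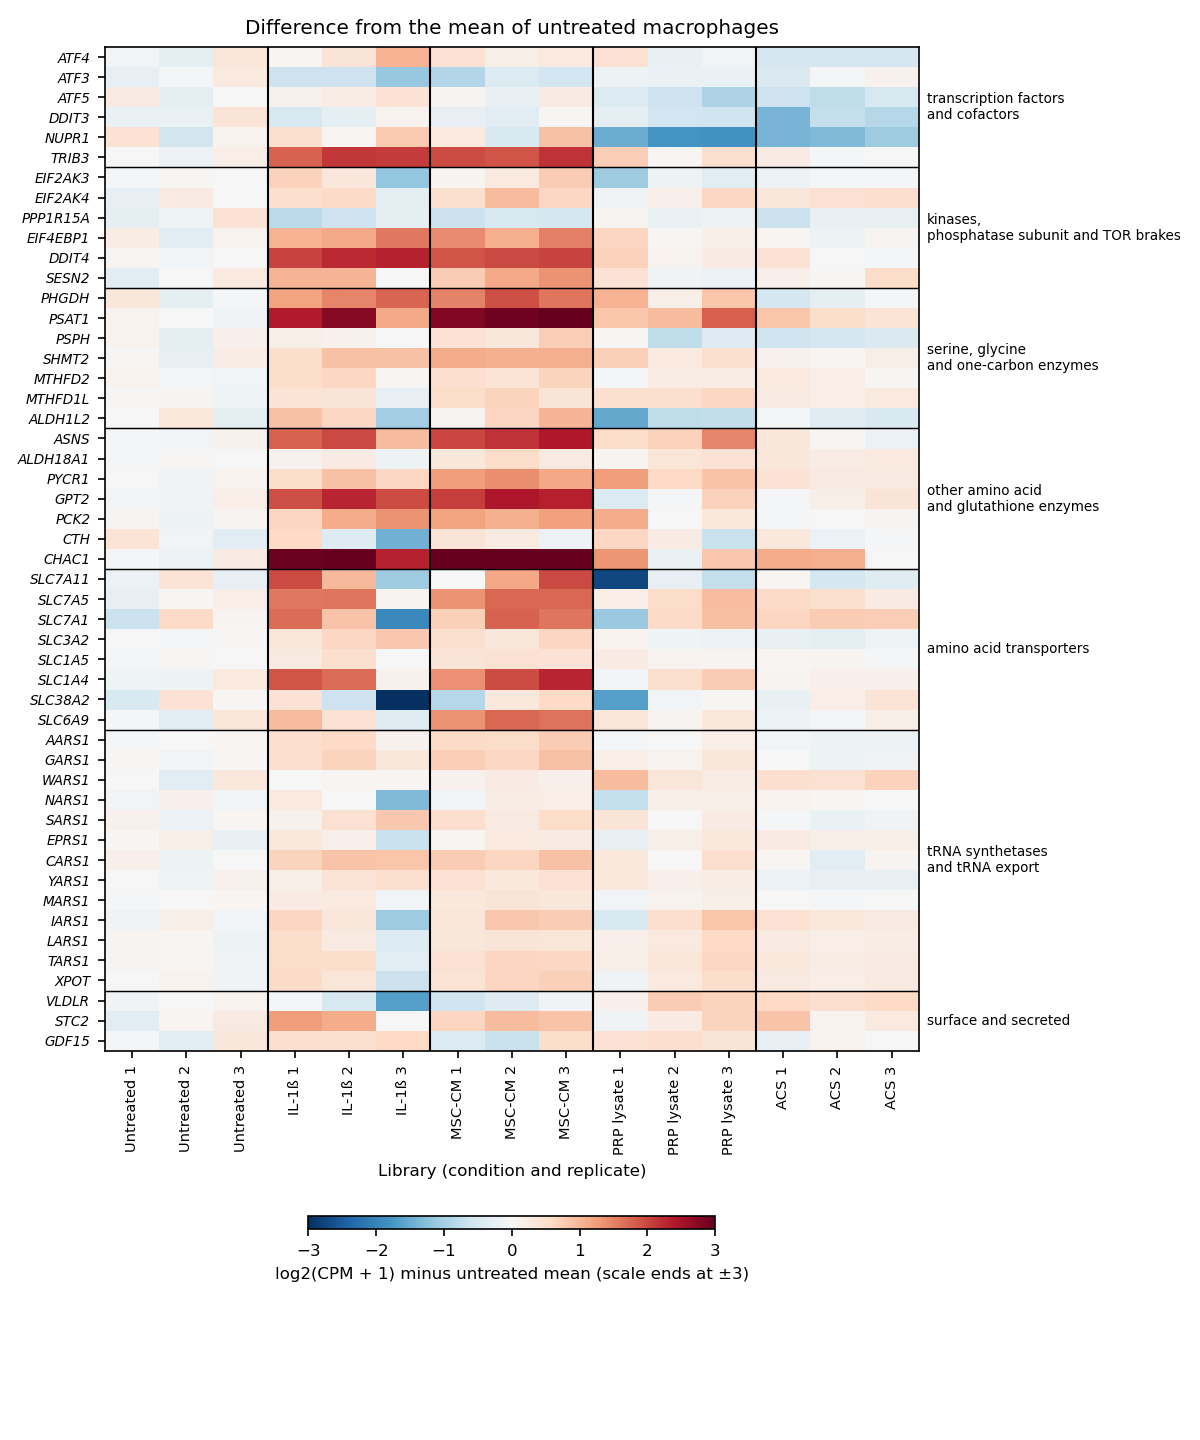
Difference of log2(CPM + 1) from the mean of the 3 untreated libraries for the 50 listed members (rows, in the order of their roles) in each of the 15 libraries (columns), with red above and blue below the untreated mean and colours that end at a difference of 3. TRIB3, DDIT4, PSAT1, ASNS, GPT2 and CHAC1 are red in the IL-1ß and MSC-CM libraries and pale in most PRP lysate and ACS libraries, NUPR1 is blue with PRP lysate and ACS, and IL-1ß replicate 3 is dark blue for SLC38A2.

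IL-1ß raised a restricted set of ATF4 targets. Genes were called at a limma p of at most 0.05 after Benjamini-Hochberg adjustment and a fold change of at least 2. Differences between conditions are log2 fold changes ± SE (SE) on the log2(CPM + 1) scale, which understates changes of genes with few CPM. The SE pools the spread of all 5 conditions and is the same for every comparison of a member. On that scale the median SD over all genes ran from 0.13 with ACS to 0.44 with IL-1ß. Of the 49 members tested, 8 were higher in IL-1ß treated than in untreated macrophages, beside 0.138% of all genes tested. They were the pseudokinase TRIB3, the TOR inhibitor DDIT4, the translation repressor EIF4EBP1, the serine synthesis enzymes PHGDH and PSAT1, asparagine synthetase ASNS, the alanine aminotransferase GPT2 and the glutathione-degrading enzyme CHAC1. The median log2 fold change was 0.36 over the members and -0.07 over all genes tested. In 18 members every library with IL-1ß exceeded all untreated ones, where 7.98% of all genes tested did so, and in 1, ATF3, the groups were apart in the other direction (8.22%). By limma 0 members were lower, where 0.155% of all genes were, as by DESeq2 and edgeR. At an unadjusted p of at most 0.05 without a fold limit, ATF3, PPP1R15A and VLDLR lay below untreated, where 6.5% of all genes did. When 1 library was left out, the count of 8 became 4 (IL-1ß replicate 1), 3 (IL-1ß replicate 2 or any of the untreated libraries) or 9 (IL-1ß replicate 3). The share of all genes called in either direction moved with it, from 0.292% to 0.086%, between 0.043% and 0.0602%, and 0.301%. Without IL-1ß replicate 3, PHGDH missed the threshold (log2 fold change 1.33, limma adjusted p = 0.0543), and the transporters SLC7A5 (1.59, limma adjusted p = 0.00455) and SLC1A4 (1.77, limma adjusted p = 0.0213) passed it. A fit of the untreated and IL-1ß libraries alone called 0 of the 8 and 0.0% of all genes. In that fit the limma adjusted p was 0.0657 for DDIT4, 0.164 for GPT2 and 0.131 for TRIB3. The replicate block called 3 (0.0516% of all genes). DDIT4, GPT2 and TRIB3 held the call in 6 of 6 of the fits that left out a library, CHAC1 in 2, ASNS, EIF4EBP1 and PSAT1 in 1 each and PHGDH in 0.

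With MSC-CM no member passed the test against IL-1ß. By limma 0 of the 49 members were called against IL-1ß, as were 0.0% of all genes, and DESeq2 and edgeR also called 0 members. At an unadjusted p of at most 0.05, 7 members were higher and 1 lower, where 4.9% and 0.697% of all genes were, and the glycine transporter SLC6A9 was the only one of the 7 past a fold change of 2, where 0.267% of all genes were. The groups were apart upward in 9 members (7.25% of all genes tested) and downward in 1, DDIT4 (1.54%). The members' median of 0.24 lay beside 0.16 for all genes tested. Scaling by RLE size factors moved these medians to 0.06 and -0.0, and the number of members above 0 from 41 to 31, where the share of all genes above 0 went from 71.2% to 49.7%. The same scaling gave medians of -0.37 and 0.02 for PRP lysate against IL-1ß and -0.66 and 0.01 for ACS against IL-1ß, in the direction of the values given next.

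PRP lysate lowered 5 members relative to IL-1ß and raised 1. CHAC1, DDIT4, GPT2, TRIB3 and the stress cofactor NUPR1 fell, where 2.02% of all genes tested were called lower, and the lipoprotein receptor VLDLR rose, where 1.07% were called higher. The median was -0.27 over members and 0.11 over all genes tested. Without the fold limit 8 members were lower, the others being ATF5, EIF4EBP1 and the transporter subunit SLC3A2, where 3.0% of all genes were. The groups were apart downward in 11 members (6.47% of all genes tested) and upward in 5 (8.5%), ATF3, MTHFD1L, PPP1R15A, VLDLR and WARS1. Without IL-1ß replicate 3 the count of 6 became 11, all lower and beside 3.53% of all genes called in either direction. VLDLR was then under a fold change of 2, and the members that gained the call were PSAT1 (log2 fold change -1.37), the folate enzyme ALDH1L2 (-1.77), the kinase EIF2AK3 (-1.03), SLC1A4 (-1.38), SLC7A5 (-1.03) and SLC7A11 (-2.70). Over the 6 fits that omitted a library, the 5 members that fell kept their call each time and VLDLR did so in 2. A fit of these conditions alone called only DDIT4 and NUPR1, beside 0.482% of all genes, and CHAC1, GPT2, TRIB3 and VLDLR lost the call. DESeq2 called 11 members, beside 4.92% of all genes.

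ACS lowered 11 members relative to IL-1ß and raised 1. ATF4 itself fell, together with NUPR1, TRIB3, DDIT4, EIF4EBP1, PHGDH, PSAT1, ASNS, CHAC1, GPT2 and the mitochondrial phosphoenolpyruvate carboxykinase PCK2, beside 0.98% of all genes tested that were called lower. VLDLR rose, beside 1.23% called higher. The median was -0.54 over members and 0.13 over all genes tested. Without the fold limit 18 members were lower, among them the tRNA synthetases AARS1, CARS1, GARS1 and YARS1, where 1.68% of all genes were. The groups were apart downward in 23 members (11.2% of all genes tested) and upward in 3 (14.9%). The count of 12 was 7 without ACS replicate 1 and 6 without ACS replicate 2, ACS replicate 3 or IL-1ß replicate 2. Of all genes, 2.21% were called with every library and 1.39%, 0.886%, 0.886% and 1.4% in these fits. Over the 6 fits that omitted a library, DDIT4, EIF4EBP1, GPT2, PHGDH and TRIB3 held the call in all 6, CHAC1 and NUPR1 in 4, ASNS in 3, PSAT1 in 2, and ATF4, PCK2 and VLDLR in 1 each. A fit of these conditions alone called 3 members (DDIT4, GPT2 and TRIB3), beside 0.413% of all genes. EIF4EBP1 and PHGDH were among those that lost the call there. Without IL-1ß replicate 3, SLC1A4 (log2 fold change -1.64, limma adjusted p = 0.0095) and SLC7A5 (-1.15, limma adjusted p = 0.0106) were also lower. The comparisons of the 3 OTs with IL-1ß share the IL-1ß libraries, so their values are given side by side and are not independent of each other.

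**Figure D2:**
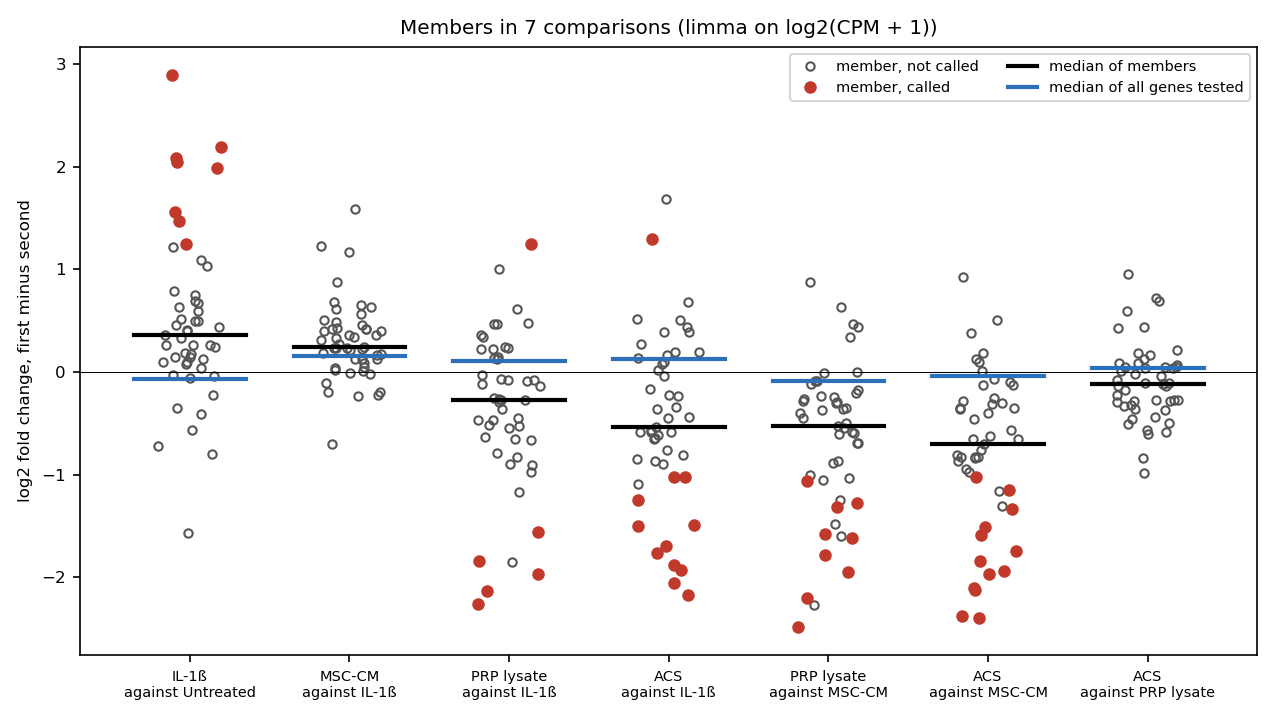
Log2 fold change of each of the 49 tested members in the 7 comparisons, on the log2(CPM + 1) scale, with filled circles for members called, open circles for the others, and bars for the medians of the members (black) and of all genes tested (blue). The members' median lies above that of all genes with IL-1ß (0.36 and -0.07) and below it with PRP lysate (-0.27 and 0.11) and ACS (-0.54 and 0.13) against IL-1ß.

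The OTs were also compared with each other, where the IL-1ß libraries enter through the shared estimate of the spread but not through the means. PRP lysate left 9 members lower than MSC-CM did (ASNS, CHAC1, DDIT4, EIF4EBP1, GPT2, NUPR1, PSAT1, SLC6A9 and TRIB3), where 1.81% of all genes tested were called lower. Without the fold limit 15 were lower (2.78% of all genes), and the groups were apart downward in 27 members (12.1%) and upward in 3 (7.24%). In these 2 groups the libraries of the same number deviated together, and the replicate block over the 12 numbered libraries called 6 members (1.47% of all genes). A blocked fit of these 6 libraries alone, added after the data were seen, called 15 (3.49%). ASNS, PSAT1 and SLC6A9 lost the call under the block over 12 libraries. SLC6A9 also lost it in those libraries with no block, where 8 members were called (2.05% of all genes). When 1 library was omitted, CHAC1, DDIT4, GPT2, NUPR1 and TRIB3 held the call in 6 of 6 fits, PSAT1 in 5, ASNS in 3, and EIF4EBP1 and SLC6A9 in 2 each. By limma, 0 were higher, where 0.8% of all genes were, as by DESeq2 and edgeR, and ATF3, GDF15, PPP1R15A and VLDLR lay above at an unadjusted p, where 5.1% of all genes did. The count was 5 without MSC-CM replicate 3 (1.47% of all genes called) and 13 without PRP lysate replicate 1 (3.42%), beside 2.61% with every library. ACS left 13 members lower than MSC-CM did (ASNS, CHAC1, DDIT4, EIF4EBP1, GPT2, NUPR1, PCK2, PHGDH, PSAT1, PSPH, SLC1A4, SLC6A9 and TRIB3), where 0.636% of all genes tested were called lower. Without the fold limit 20 were lower (1.1% of all genes), and the groups were apart downward in 35 members (22.2%) and upward in 2, VLDLR and WARS1 (12.9%). The MSC-CM libraries enter both comparisons. The count of 13 was 8 without ACS replicate 2 (0.499% of all genes called) or MSC-CM replicate 3 (0.456%), beside 1.23% with every library. Again 0 members were higher by limma, DESeq2 and edgeR, where 0.593% of all genes were by limma, and ATF3 and VLDLR lay above at an unadjusted p, where 4.74% of all genes did.

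Between ACS and PRP lysate 0 of the 49 members were called by limma, where 0.0946% of all genes tested were, 0 by edgeR and 1, lower with ACS, by DESeq2. At an unadjusted p of at most 0.05, 8 members were lower with ACS (ASNS, ATF4, DDIT3, GARS1, PHGDH, PYCR1, SHMT2 and YARS1), where 1.8% of all genes were, and 0 were higher, where 3.39% were. In 14 members every ACS library lay below every PRP lysate library, where 6.66% of all genes tested did so, and in 2 members, NUPR1 and ALDH1L2, every ACS library lay above (8.97%).

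ATF4 (ENSECAG00000006931, chromosome 28, 37457963 to 37459700, on EquCab 3.0 as are all positions here), the factor at the head of the program, stood at 563, 484 and 766 CPM in the untreated and 619, 775 and 1223 CPM in the IL-1ß libraries, in the order of replicates 1 to 3. Its level was 806, 672 and 728 CPM in the MSC-CM, 810.2, 506 and 562 CPM in the PRP lysate and 408, 416 and 415 CPM in the ACS libraries. The ACS libraries lay close together and below every other library, and the IL-1ß libraries spread widely, with replicate 3 highest. Its mean was 604 ± 146 CPM untreated and 872 ± 314 CPM with IL-1ß (mean ± SD, n = 3 throughout), a difference that did not pass the test (0.50 ± 0.242 SE, 95% interval -0.03 to 1.02, limma adjusted p = 0.411). With ACS it fell relative to IL-1ß, to 413 ± 4.1 CPM (-1.02 ± 0.242 SE, limma adjusted p = 0.0365), a call that was lost under RLE and TMM scaling, without the low-value filter and in a fit of these conditions alone. Without IL-1ß replicate 3 that difference was -0.74 (limma adjusted p = 0.0984). Against MSC-CM the ACS difference missed the threshold (-0.83 ± 0.242 SE, limma adjusted p = 0.12).

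DDIT3 (ENSECAG00000020535, chromosome 6, 76026089 to 76026683), which encodes CHOP, a partner of ATF4 in prolonged stress, stood at 93.1, 92.8 and 139 CPM untreated and 76.5, 86.4 and 114 CPM with IL-1ß. The OT libraries held 89.9, 85.1 and 109 CPM with MSC-CM, 88.8, 70.9 and 70.5 CPM with PRP lysate and 40.2, 64.4 and 58.2 CPM with ACS. All 3 ACS libraries lay below all others, all 3 PRP lysate libraries lay below the untreated ones, and the other pairs of conditions overlapped. DDIT3 was not called in any comparison, and the ACS difference from IL-1ß missed the threshold (-0.76 ± 0.219 SE, 95% interval -1.24 to -0.29, limma adjusted p = 0.0797). The gene lies within the span of MARS1, also a member, and the strand setting of the counting is not given in the sources used here, so reads of this pair may have been divided between them or dropped.

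TRIB3 (ENSECAG00000000607, chromosome 22, 22596194 to 22603700), a pseudokinase induced by ATF4 that dampens it in turn, stood at 16.2, 14.3 and 19.1 CPM untreated and 58.1, 74.4 and 73.1 CPM with IL-1ß. Its level was 67, 63 and 77.3 CPM with MSC-CM, 27.9, 17.2 and 23.3 CPM with PRP lysate and 19.5, 15.9 and 16.4 CPM with ACS. The IL-1ß and MSC-CM libraries formed a high set with no overlap with the other 9 libraries. Its mean of 68.5 ± 9.08 CPM with IL-1ß compared with 16.5 ± 2.44 CPM untreated (1.99 ± 0.187 SE), 69.1 ± 7.35 CPM with MSC-CM (0.02 ± 0.187 SE, 95% interval -0.39 to 0.42), 22.8 ± 5.35 CPM with PRP lysate (-1.56 ± 0.187 SE, limma adjusted p = 0.000342) and 17.3 ± 1.93 CPM with ACS (-1.93 ± 0.187 SE, limma adjusted p = 0.000186). ACS and PRP lysate libraries overlapped.

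NUPR1 (ENSECAG00000014847, chromosome 13, 20831458 to 20832127), a small chromatin cofactor of the stress response, stood at 27.7, 13.4 and 21.8 CPM untreated and 28.3, 21 and 35.3 CPM with IL-1ß. Under the OTs the values were 25, 14.4 and 38.1 CPM with MSC-CM, 6.48, 5.07 and 5.03 CPM with PRP lysate and 7.04, 7.37 and 9.15 CPM with ACS. The first 3 conditions overlapped, and every PRP lysate and ACS library lay below every one of them, untreated included. The difference between IL-1ß and untreated did not pass (0.44 ± 0.326 SE, 95% interval -0.27 to 1.14, limma adjusted p = 0.567). The mean fell from 28.2 ± 7.16 CPM with IL-1ß to 5.53 ± 0.823 CPM with PRP lysate (-2.14 ± 0.326 SE, limma adjusted p = 0.00178) and 7.85 ± 1.13 CPM with ACS (-1.70 ± 0.326 SE, limma adjusted p = 0.0137). The lower level with ACS than with MSC-CM was called in 1 of the 6 fits that omitted a library and lost under RLE and TMM scaling and without the low-value filter.

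The other factors of the list, ATF3 and ATF5, were called in no comparison. ATF3, a repressor that acts early in the response, stood at 1056, 1190.5 and 1527 CPM untreated and 807, 803 and 562 CPM with IL-1ß, so that the groups did not overlap, but the difference missed the threshold (-0.80 ± 0.192 SE, limma adjusted p = 0.103). ATF5, another stress factor translated in the same way as ATF4, was at 53.5 ± 5.67 CPM with IL-1ß, 28.1 ± 4.97 CPM with PRP lysate and 28.7 ± 2.93 CPM with ACS, lower by the adjusted p alone in both (-0.91 ± 0.185 SE with PRP lysate, limma adjusted p = 0.0113, and -0.87 ± 0.185 SE with ACS, limma adjusted p = 0.0222), under a fold change of 2.

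**Figure D3:**
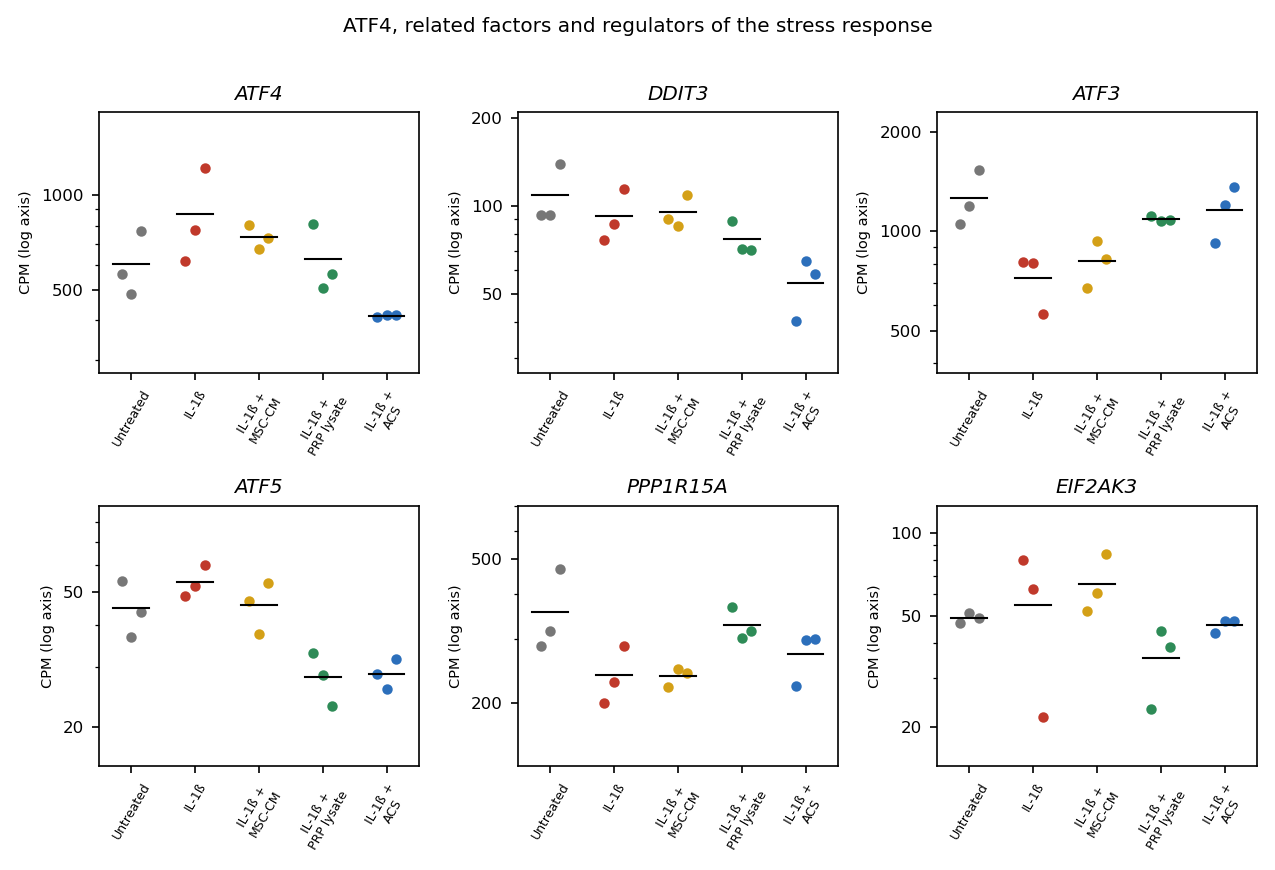
CPM (log axis) of 6 regulators of the stress response in each library, with points for libraries and a bar for the mean of the 3 libraries of a condition. The ACS points of ATF4 (408 to 416 CPM) and DDIT3 (40.2 to 64.4 CPM) lie below those of every other condition, and the IL-1ß points of ATF3 (562 to 807 CPM) lie below the untreated ones.

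Among the genes that act on translation and TOR, DDIT4 and EIF4EBP1 rose with IL-1ß, and the kinases EIF2AK3 and EIF2AK4, the eIF2 phosphatase subunit PPP1R15A and the leucine sensor SESN2 were not called in any comparison of all libraries. DDIT4 (ENSECAG00000004107, chromosome 1, 60601672 to 60602689), an inhibitor of the TOR complex also known as REDD1, stood at 11.8, 10.6 and 11.3 CPM untreated and 49, 56.2 and 59 CPM with IL-1ß. DDIT4 in the OT groups stood at 44, 47.5 and 48.7 CPM with MSC-CM, 18.7, 12.1 and 13.4 CPM with PRP lysate and 15.4, 11.2 and 10.8 CPM with ACS. The spread within each condition was small beside the gap between the high and the low conditions, and every MSC-CM library lay just below every IL-1ß library. The mean rose from 11.2 ± 0.591 CPM to 54.7 ± 5.15 CPM with IL-1ß (2.19 ± 0.179 SE, limma adjusted p = 0.00019). It was 46.7 ± 2.4 CPM with MSC-CM (-0.22 ± 0.179 SE, 95% interval -0.61 to 0.17), and fell to 14.7 ± 3.47 CPM with PRP lysate (-1.84 ± 0.179 SE, limma adjusted p = 9.7e-05) and 12.5 ± 2.58 CPM with ACS (-2.06 ± 0.179 SE, limma adjusted p = 7.72e-05).

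EIF4EBP1 (ENSECAG00000015719, chromosome 27, 7664711 to 7686825), which holds back cap-dependent translation when TOR is inactive, stood at 27.3, 18.1 and 25 CPM untreated, 48.5, 51.7 and 71.3 CPM with IL-1ß and 63, 50.2 and 67.9 CPM with MSC-CM. With PRP lysate it stood at 36.5, 23.8 and 26.1 CPM and with ACS at 24.1, 20.8 and 24.4 CPM, so that these libraries lay below every IL-1ß and MSC-CM library and overlapped the untreated ones. The rise with IL-1ß (1.25 ± 0.213 SE, limma adjusted p = 0.0348) and the fall with ACS against IL-1ß (-1.25 ± 0.213 SE, limma adjusted p = 0.00713) were called, and the difference with PRP lysate (-0.97 ± 0.213 SE, limma adjusted p = 0.0183) passed on the adjusted p but stayed just under a fold change of 2. The rise with IL-1ß lost its call in edgeR and under RLE and TMM scaling. The lower level with PRP lysate than with MSC-CM (-1.06 ± 0.213 SE, limma adjusted p = 0.0121) lost it in DESeq2, edgeR, under RLE and TMM scaling and in the fit of these conditions alone. PPP1R15A, the subunit that turns the response off, had its lowest means with IL-1ß (238 ± 44.5 CPM) and MSC-CM (237 ± 14.2 CPM) and its highest untreated (358 ± 97.7 CPM), and the difference between IL-1ß and untreated was not called (-0.57 ± 0.193 SE, limma adjusted p = 0.24).

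In the serine, glycine and one-carbon group, 2 of 7 members rose with IL-1ß, beside 0.138% of all genes tested, and 7 of 7 lay above 0 in log2 fold change, as did 43.1% of all genes tested. PSAT1 (ENSECAG00000017903, chromosome 23, 12768902 to 12800860), the aminotransferase of serine synthesis, stood at 10.2, 9.45 and 8.75 CPM untreated and 53.7, 68.9 and 22.2 CPM with IL-1ß, where replicate 3 was far below the other 2 libraries. With MSC-CM it stood at 70.4, 78.5 and 96 CPM, above every IL-1ß library. PRP lysate libraries held 17.8, 19.2 and 35.2 CPM and ACS libraries 17.6, 14 and 13 CPM, all still above the untreated ones. It rose with IL-1ß (2.09 ± 0.349 SE, limma adjusted p = 0.0344) and fell with ACS against IL-1ß (-1.50 ± 0.349 SE, limma adjusted p = 0.0338), a call that held in 2 of 6 fits that omitted a library and was lost without the low-value filter. The difference of PRP lysate from IL-1ß was not called (-0.90 ± 0.349 SE, 95% interval -1.65 to -0.14, limma adjusted p = 0.188). Against MSC-CM, both PRP lysate (-1.78 ± 0.349 SE, limma adjusted p = 0.0107) and ACS (-2.38 ± 0.349 SE, limma adjusted p = 0.00383) were lower, the first not under the replicate block.

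PHGDH (ENSECAG00000005228, chromosome 5, 46468529 to 46507364), the first enzyme of serine synthesis, stood at 5.77, 3.39 and 4.15 CPM untreated and 11.4, 13.7 and 17 CPM with IL-1ß. With the OTs it stood at 14.1, 19.6 and 15.3 CPM with MSC-CM, 10.1, 5.07 and 8.52 CPM with PRP lysate and 2.73, 3.37 and 4.13 CPM with ACS. Its levels were ordered from MSC-CM and IL-1ß, which overlapped, through PRP lysate to untreated and ACS, and PRP lysate replicate 2 lay within the untreated range. It rose with IL-1ß (1.47 ± 0.255 SE, limma adjusted p = 0.0352). ACS lowered it against IL-1ß (-1.76 ± 0.255 SE, limma adjusted p = 0.00317) and against MSC-CM (-1.97 ± 0.255 SE, limma adjusted p = 0.0024). Neither PRP lysate against IL-1ß (-0.79 ± 0.255 SE, limma adjusted p = 0.109) nor ACS against PRP lysate (-0.98 ± 0.255 SE, 95% interval -1.53 to -0.43, limma adjusted p = 0.311) was called. PSPH (ENSECAG00000020880, chromosome 13, 19097737 to 19102924), the phosphatase that completes serine synthesis, stood at 21.1, 16 and 21.7 CPM untreated and 22.2, 21.2 and 19.3 CPM with IL-1ß, which overlapped (0.10 ± 0.201 SE, 95% interval -0.34 to 0.53, limma adjusted p = 0.821). Its level was 26.5, 24.8 and 33.2 CPM with MSC-CM, 19.9, 11.1 and 14.5 CPM with PRP lysate and 12.4, 13.4 and 14.2 CPM with ACS, and was lower with ACS than with MSC-CM (-1.02 ± 0.201 SE, limma adjusted p = 0.0208). That call held in 1 of the 6 fits that omitted a library and was lost under RLE and TMM scaling.

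Of the remaining one-carbon members none was called past a fold change of 2. SHMT2, which makes glycine and one-carbon units in mitochondria, was higher with IL-1ß by the adjusted p alone, from 195 ± 32.5 to 329 ± 43.5 CPM (0.75 ± 0.147 SE, limma adjusted p = 0.0495). It was lower with ACS, at 209.6 ± 9.1 CPM, than with MSC-CM, at 413 ± 8.73 CPM (-0.97 ± 0.147 SE, limma adjusted p = 0.00444), again under a fold change of 2. MTHFD2, MTHFD1L and ALDH1L2 were not called in any comparison of all libraries.

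The other enzymes of amino acid and glutathione metabolism held 3 of the 8 members that rose with IL-1ß, ASNS, CHAC1 and GPT2. ASNS (ENSECAG00000012134, chromosome 4, 40865817 to 40884683), asparagine synthetase and a textbook ATF4 target, stood at 19.6, 19.1 and 21.9 CPM untreated and 70.4, 82.5 and 39.5 CPM with IL-1ß. The OT libraries held 84.1, 94.1 and 110.3 CPM with MSC-CM, 30.1, 33.3 and 57.3 CPM with PRP lysate and 25.6, 20.8 and 17.6 CPM with ACS. Every MSC-CM library exceeded every IL-1ß library, the PRP lysate libraries lay between the untreated and the MSC-CM ones, and ACS overlapped untreated. It rose with IL-1ß (1.56 ± 0.277 SE, limma adjusted p = 0.0408) and fell with ACS against IL-1ß (-1.49 ± 0.277 SE, limma adjusted p = 0.0111), a call held in 3 of 6 fits that omitted a library. PRP lysate against IL-1ß was not called (-0.65 ± 0.277 SE, 95% interval -1.25 to -0.05, limma adjusted p = 0.235), and IL-1ß replicate 3 lay within the range of the PRP lysate libraries. Against MSC-CM, both PRP lysate (-1.28 ± 0.277 SE, limma adjusted p = 0.0185) and ACS (-2.13 ± 0.277 SE, limma adjusted p = 0.0024) were lower. The call for PRP lysate was lost under the replicate block and held in 3 of 6 fits that omitted a library.

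CHAC1 (ENSECAG00000009989, chromosome 1, 149132841 to 149134495), an enzyme that breaks down glutathione and is induced through ATF4, stood at 1.23, 1.04 and 1.74 CPM untreated and 16.9, 24.3 and 10.4 CPM with IL-1ß. Under the OTs the values were 20.4, 17.6 and 20 CPM with MSC-CM, 4.76, 1 and 3.06 CPM with PRP lysate and 4.01, 3.9 and 1.32 CPM with ACS. The IL-1ß and MSC-CM libraries overlapped each other and lay above all the rest, and PRP lysate replicate 2 and ACS replicate 3 were as low as untreated libraries. The mean was 1.34 ± 0.366 CPM untreated and 17.2 ± 6.95 CPM with IL-1ß. The log2 fold change was -2.26 with PRP lysate against IL-1ß (limma adjusted p = 0.00469) and -2.17 with ACS against IL-1ß (limma adjusted p = 0.011). PRP lysate and ACS differed by 0.09 (95% interval -0.77 to 0.96).

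GPT2 (ENSECAG00000009485, chromosome 3, 390061 to 421465), a mitochondrial aminotransferase that links alanine and glutamate, stood at 0.945, 0.897 and 1.35 CPM untreated and 6.81, 9.01 and 6.92 CPM with IL-1ß. GPT2 in the OT groups stood at 7.7, 10.1 and 9.29 CPM with MSC-CM, 0.537, 1 and 2.32 CPM with PRP lysate and 1.01, 1.32 and 1.67 CPM with ACS. Although its level was low, the high and low sets did not overlap, and reads per library ranged from 20 to 397. It rose with IL-1ß (2.05 ± 0.254 SE, limma adjusted p = 0.0046) and fell with PRP lysate (-1.97 ± 0.254 SE, limma adjusted p = 0.00057) and ACS (-1.88 ± 0.254 SE, limma adjusted p = 0.00222) against IL-1ß. Its span overlaps that of DNAJA2, and the division of reads between the pair is uncertain.

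PCK2 (ENSECAG00000013913, chromosome 1, 163810849 to 163820257), which feeds mitochondrial oxaloacetate into phosphoenolpyruvate, stood at 89.9, 76.3 and 90.2 CPM untreated and 134, 184 and 218 CPM with IL-1ß. With the OTs it stood at 198, 180.3 and 200.1 CPM with MSC-CM, 186, 84.6 and 107 CPM with PRP lysate and 83.1, 85.4 and 90 CPM with ACS. All 3 IL-1ß libraries exceeded the untreated ones, but the difference missed the threshold (1.03 ± 0.24 SE, limma adjusted p = 0.0931). PRP lysate replicate 1 was as high as the MSC-CM libraries and the other 2 were low. ACS lowered PCK2 against IL-1ß (-1.02 ± 0.24 SE, limma adjusted p = 0.0355) and against MSC-CM (-1.15 ± 0.24 SE, limma adjusted p = 0.0278), and these calls held in 1 and 0 of the 6 fits that left out a library. Without IL-1ß replicate 3 the first was -0.86 (limma adjusted p = 0.106), and the second was lost under RLE and TMM scaling.

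**Figure D4:**
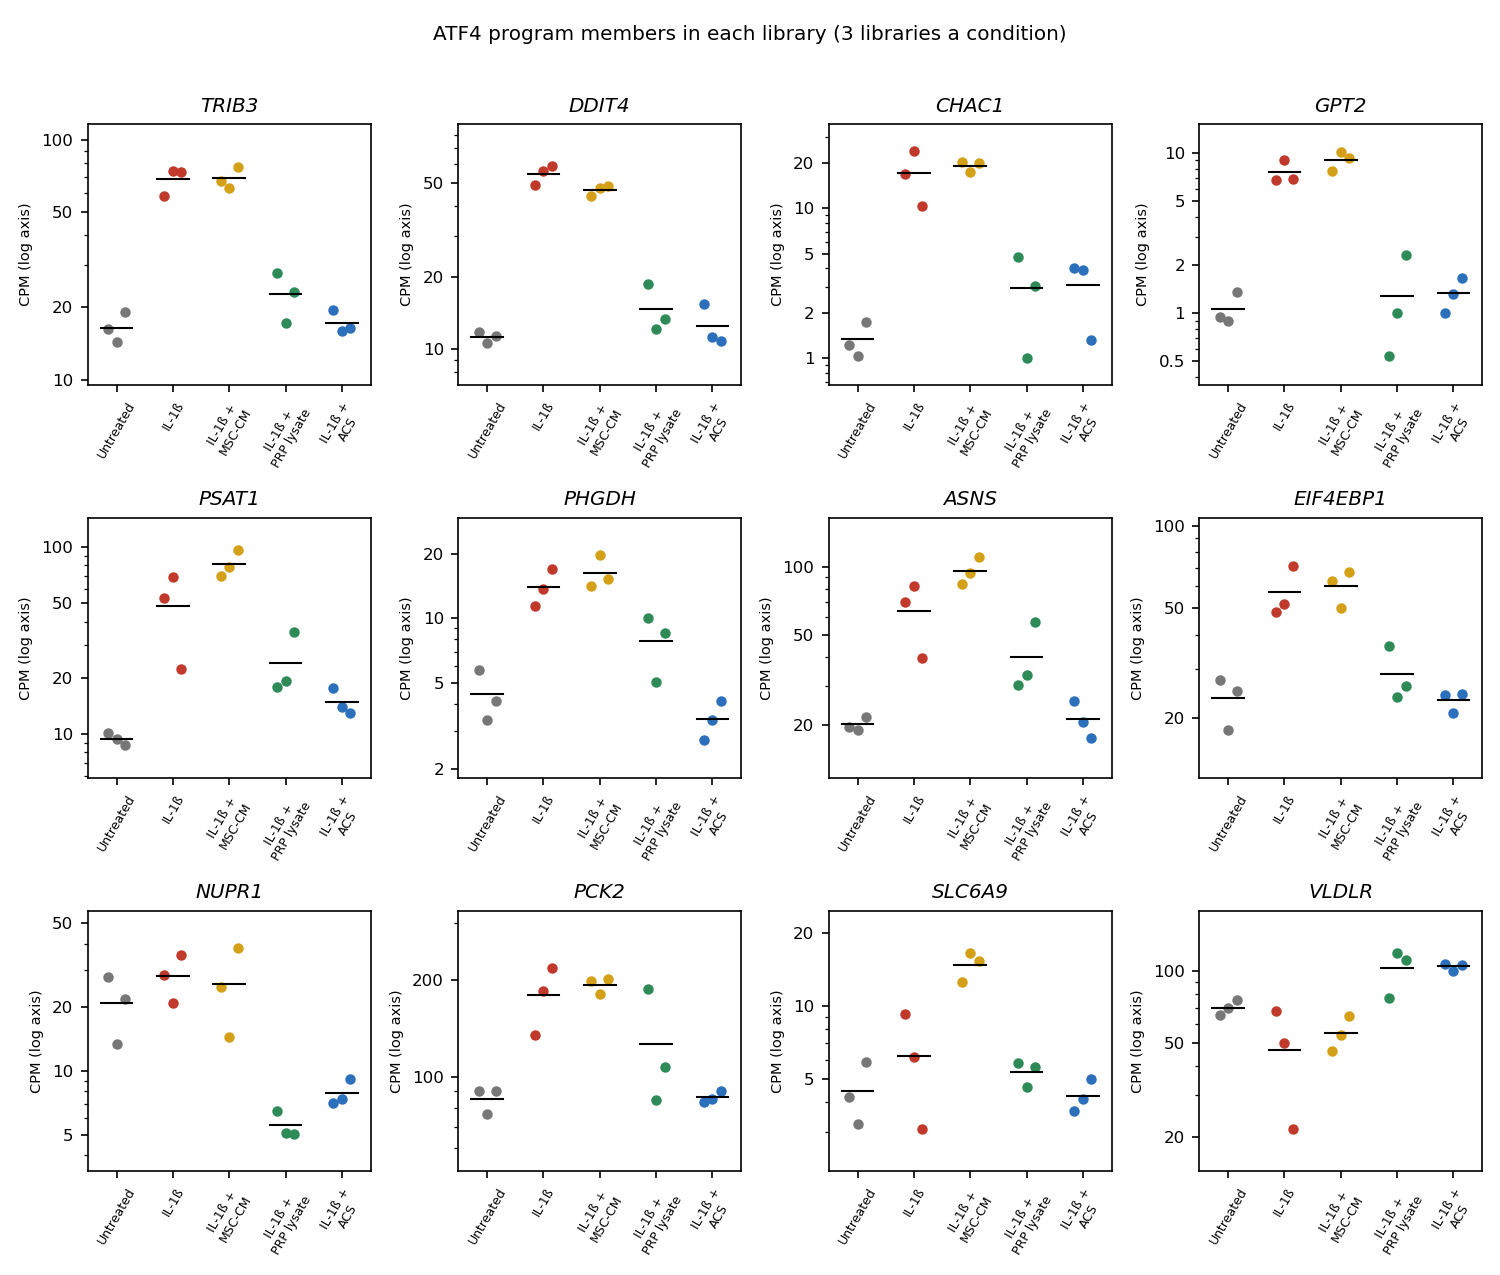
CPM (log axis) of 12 members in each library, with points for the 3 libraries of a condition and a bar for their mean. TRIB3, DDIT4, CHAC1 and GPT2 are high with IL-1ß and MSC-CM only. The PRP lysate means of PSAT1, PHGDH and ASNS lie between the untreated and IL-1ß means. Their points overlap those of IL-1ß for PSAT1 and ASNS and the untreated ones for PHGDH. NUPR1 is low with PRP lysate and ACS, SLC6A9 is highest with MSC-CM, and VLDLR is highest with PRP lysate and ACS.

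The amino acid transporters gave 0 calls of 8 with IL-1ß in limma, and 7 of 8 lay above 0, as did 43.1% of all genes tested. At an unadjusted p with a fold change of 2, SLC1A4 and SLC7A5 lay above untreated, as did 0.576% of all genes. SLC1A4 (ENSECAG00000011229, chromosome 15, 37746505 to 37769074), a carrier of alanine, serine and cysteine, stood at 2.32, 2.27 and 3.49 CPM untreated and 12.5, 10.6 and 2.97 CPM with IL-1ß. The OT libraries held 8.49, 13.2 and 16.8 CPM with MSC-CM, 2.47, 4.14 and 5.21 CPM with PRP lysate and 2.89, 3.03 and 3.07 CPM with ACS. In IL-1ß replicate 3 it stayed at the untreated level, and in the other 2 it was about as high as with MSC-CM. It was lower with ACS than with MSC-CM (-1.75 ± 0.398 SE, limma adjusted p = 0.0419), a call that held in 0 of the 6 fits that left out a library.

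SLC6A9 (ENSECAG00000002225, chromosome 2, 14363038 to 14392676), the glycine transporter GLYT1, stood at 4.19, 3.25 and 5.86 CPM untreated and 9.26, 6.16 and 3.11 CPM with IL-1ß. Under the OTs the values were 12.6, 16.5 and 15.4 CPM with MSC-CM, 5.83, 4.61 and 5.6 CPM with PRP lysate and 3.68, 4.11 and 4.99 CPM with ACS. Every MSC-CM library lay above every other library. The difference between MSC-CM and IL-1ß did not pass after adjustment over all genes (1.23 ± 0.288 SE, 95% interval 0.61 to 1.85, limma adjusted p = 0.705). PRP lysate (-1.32 ± 0.288 SE, limma adjusted p = 0.0197) and ACS (-1.59 ± 0.288 SE, limma adjusted p = 0.0129) were lower than MSC-CM, and each call held in 2 of 6 fits that omitted a library. That with PRP lysate was lost under the replicate block and also in the same 12 libraries with no block. The span of SLC6A9 overlaps that of CCDC24.

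SLC38A2 had the widest spread of the list among the IL-1ß libraries, with an SD of 2.61 on the log2 scale, and replicate 3 was far below the others. This glutamine carrier, SNAT2, stood at 185, 87.8 and 4.98 CPM in the IL-1ß libraries, against 99.3, 183 and 139 CPM in the untreated ones, and SLC7A11, the cystine carrier, at 24.7, 12 and 2.14 CPM. SLC7A11 was listed at 0 in PRP lysate replicate 1. Over the list, IL-1ß replicate 3 was the lowest of its group in 30 of 49 members and the highest in 14 (61.2% and 28.6%), beside 59.4% and 31.8% of all genes tested. SLC3A2, the heavy chain of several amino acid carriers, differed less between replicates. It was lower by the adjusted p alone with PRP lysate (-0.66 ± 0.132 SE, limma adjusted p = 0.0102) and ACS (-0.81 ± 0.132 SE, limma adjusted p = 0.00581) than with IL-1ß.

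The tRNA charging group, of 12 synthetases and the tRNA exporter XPOT, gave 0 of 13 calls in each of the 7 comparisons by limma. Against IL-1ß, 7 of the 13 lay above 0 and 6 below with PRP lysate (median 0.13) and likewise with ACS (median 0.02), beside medians of 0.11 and 0.13 over all genes tested. Without the fold limit 0 passed with IL-1ß, 4 were lower with ACS than with IL-1ß and 4 with ACS than with MSC-CM, and 2 with PRP lysate than with MSC-CM (AARS1 and GARS1), beside 1.68%, 1.1% and 2.78% of all genes tested. Against IL-1ß these were AARS1 (log2 fold change -0.54), CARS1 (-0.85), GARS1 (-0.58) and YARS1 (-0.58). Against MSC-CM the log2 fold changes with ACS were -0.76 for AARS1, -0.83 for CARS1, -0.83 for GARS1 and -0.62 for YARS1. GARS1 (ENSECAG00000019373, chromosome 4, 61280352 to 61323896), the glycyl-tRNA synthetase, stood at 212, 193 and 209 CPM untreated and 289, 323 and 259.8 CPM with IL-1ß. GARS1 in the OT groups stood at 341, 314 and 376 CPM with MSC-CM, 236, 218 and 259 CPM with PRP lysate and 206, 184 and 190.0 CPM with ACS. The IL-1ß libraries all exceeded the untreated ones, a difference that missed the threshold (0.50 ± 0.117 SE, limma adjusted p = 0.0965), and ACS lay below IL-1ß by 0.58 (limma adjusted p = 0.0171).

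WARS1 (ENSECAG00000011037, chromosome 24, 42687389 to 42717279), the tryptophanyl-tRNA synthetase, is also induced by interferon. Its level was 2272, 1821 and 2835 CPM untreated and 2267, 2378 and 2362 CPM with IL-1ß. With the OTs it stood at 2466, 2705 and 2513 CPM with MSC-CM, 4412, 2917 and 2666 CPM with PRP lysate and 3246, 3112 and 3667 CPM with ACS. Every PRP lysate and ACS library lay above every IL-1ß library, but neither difference passed (0.48 ± 0.185 SE with PRP lysate, limma adjusted p = 0.187, and 0.51 ± 0.185 SE with ACS, limma adjusted p = 0.155).

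**Figure D5:**
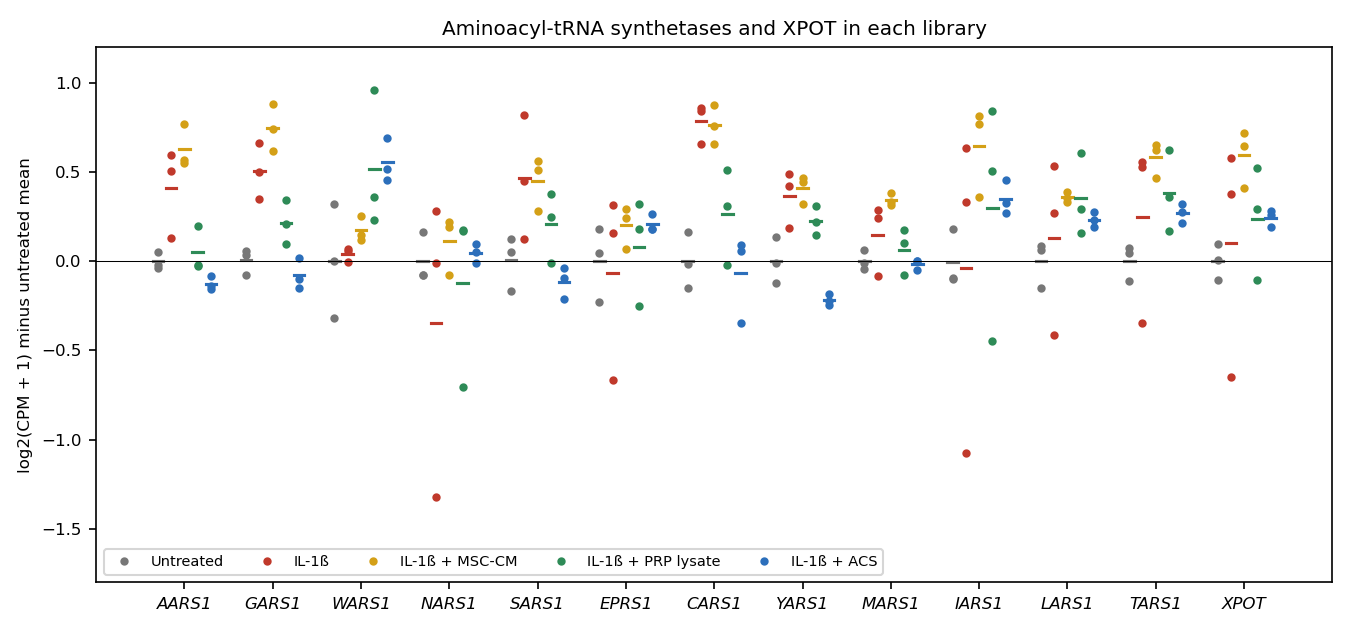
Difference of log2(CPM + 1) from the untreated mean for the 12 synthetases and XPOT, with points for libraries coloured by condition and short bars for condition means. For AARS1, GARS1, CARS1 and YARS1 the IL-1ß and MSC-CM points lie above the ACS points, WARS1 has its higher points with PRP lysate and ACS, and the low red points of NARS1, EPRS1, IARS1, LARS1, TARS1 and XPOT are IL-1ß replicate 3.

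Of the surface and secreted members, VLDLR (ENSECAG00000021859, chromosome 23, 23784757 to 23813957), a lipoprotein receptor under ATF4 control in stressed cells, stood at 65.1, 69.6 and 75.3 CPM untreated and 68, 49.9 and 21.6 CPM with IL-1ß. The OT libraries held 46.2, 53.6 and 64.7 CPM with MSC-CM, 77.3, 119 and 112 CPM with PRP lysate and 107, 100.3 and 106 CPM with ACS. It was the only member that rose with PRP lysate (1.25 ± 0.313 SE, limma adjusted p = 0.0367) or ACS (1.30 ± 0.313 SE, limma adjusted p = 0.0384) against IL-1ß. Without IL-1ß replicate 3, which held its lowest value, the differences were 0.78 with PRP lysate and 0.83 with ACS, both under a fold change of 2. GDF15, a stress-induced cytokine, stayed between 0.36 and 2.25 CPM, was called in no comparison and overlaps PGPEP1. STC2 held 0.0766, 0.42 and 0.631 CPM in the untreated and 2.25, 1.95 and 0.346 CPM in the IL-1ß libraries.

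The 8 members called with IL-1ß were followed across all conditions relative to untreated. They were chosen by their difference between IL-1ß and untreated, so what follows is a description. With MSC-CM all 3 libraries lay above all untreated libraries for 8 of the 8, where 21.9% of all genes tested did so. With PRP lysate this held for 3 (ASNS, DDIT4 and PSAT1), beside 10.1% of all genes, and with ACS for 1 (PSAT1), beside 16.3%. For MSC-CM their median log2 difference from untreated was 2.10, beside 0.10 over all genes tested. For PRP lysate these medians were 0.53 and 0.04, and for ACS 0.09 and 0.08. With ACS the single differences ranged from -0.29 to 0.73, and with MSC-CM from 1.33 to 3.13.

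Genes of neighbouring pathways, from lists of general knowledge, were read in the same fit. The 11 other cytosolic synthetases and their scaffold proteins and the 14 tested mitochondrial synthetases gave 0 calls in each comparison by limma, as did the 11 tested genes among other integrated stress response kinases and factors, which include EIF2AK1 and EIF2AK2. Among 18 tested further genes associated with ATF4, the endoplasmic reticulum protein HERPUD1 rose with IL-1ß, from 121 ± 6.98 to 262 ± 62.6 CPM (log2 fold change 1.08, limma adjusted p = 0.0412). It was the only gene of the 18 called with IL-1ß, beside 0.138% of all genes called higher. HERPUD1 and the repressor JDP2 fell with PRP lysate (by 1.27 and 1.44) and with ACS (by 1.19 and 1.06) against IL-1ß. They were 2 of the 18 in each comparison, beside 2.02% and 0.98% of all genes called lower. In the ATF6 and XBP1 branches of the unfolded protein response, 0 of 21 genes were called with IL-1ß by limma, with a median log2 fold change of 0.39 beside -0.07 over all genes tested and 16 of 21 above 0 (43.1% of all genes). By the adjusted p of limma alone, 1 of them, the transcription factor XBP1, was higher (0.74, adjusted p = 0.0341). The endoplasmic reticulum chaperone HSPA5 stood at 780.1 ± 39.6 CPM untreated and 1662 ± 525 CPM with IL-1ß, short of the threshold (log2 fold change 1.03, limma adjusted p = 0.0627). It fell to 719 ± 40.3 CPM with PRP lysate (log2 fold change -1.15, limma adjusted p = 0.0065) and 753 ± 74.1 CPM with ACS (-1.09, limma adjusted p = 0.0152). Of these 21 genes, 2 were lower with PRP lysate and 3 with ACS than with IL-1ß, beside 2.02% and 0.98% of all genes tested. These were HSPA5 and CRELD2 with PRP lysate, and HSPA5, CRELD2 and SDF2L1 with ACS.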

How the data were processed

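Messenger RNA of 15 libraries, 3 in each of 5 conditions, was analysed from 1 table of CPM values per gene that the authors deposited, with gene positions on EquCab 3.0. In the study's methods and the submitters' processing notes, reads were trimmed with cutadapt, aligned with STAR 2.7.3, counted with HTSeq against Ensembl genes and scaled to CPM in Partek. The strand setting of the counting is not given in the sources used here. Conditions came from the sample labels. CPM values depend on the total of each library, so a few abundant genes can shift all others.

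The main test was limma 3.58.1 (R 4.3.3) on log2(CPM + 1) of the 11628 genes whose mean reached 1 CPM, fitted on all 5 conditions with a shared spread. Its p-values were two-sided and Benjamini-Hochberg adjusted over all genes tested in each comparison, with calls at 0.05 and a fold change of 2. The 7 comparisons were IL-1ß against untreated, each OT against IL-1ß, and the OTs against each other. Every value above 0, 213968 or 100% of them, came out as a whole number of reads within 0.01 reads or 1e-05 of the value, and edgeR 4.0.16 and DESeq2 1.42.0 were run on these recovered reads as alternatives. Libraries held 28410734 to 47894068 reads on genes. The 95% intervals come from the limma fit. The fits were run on simulated reads with the same dispersion for every gene and condition and no library set apart. That check therefore does not bear on calls under the unequal spread of these libraries. Tables and plots were made with Python 3.11.15, pandas 2.3.3 and matplotlib 3.10.9.

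Members and gene lists were chosen with earlier results of these data known. Described in every library were ATF4, DDIT3, ASNS and CHAC1 and, in each role list, up to 5 members with the largest fold change among those called, or the 2 with the highest mean CPM where none was called. ATF3, ATF5, PPP1R15A, SHMT2, SLC38A2, SLC7A11, SLC3A2, SLC7A5, ALDH1L2, EIF2AK3, XBP1, CSF3R, GDF15, STC2, AARS1, CARS1, YARS1, CRELD2 and SDF2L1 were singled out after their values were seen.

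Replicate numbers in the labels were checked for pairing. Deviations from the group means correlated between PRP lysate and MSC-CM libraries of the same number at 0.635, 0.255 and 0.419, and that comparison was also fitted with the number as a block. Between the other numbered groups the correlations ran from -0.775 to 0.59, and ACS labels carry no number. Alternatives were other scalings, pseudocounts, low-value limits, tools, fits of 2 conditions alone, replicate blocks and the omission of each library. Promoter and protein sequences were not used here.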

Additional observations from a re-analysis of the deposited data

How the results depend on the processing

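For 50 pairs of a member and a comparison, 48 of them called, 759 log2 fold changes were computed under an alternative. Of these 600 stayed on their side of the threshold, 159 lost it and 0 reversed in sign. Other members gained a call in some settings, as the higher counts here show. Fitting only the 2 conditions compared called 0 members for IL-1ß against untreated (8 in the fit of all conditions), 2 for PRP lysate against IL-1ß (6) and 3 for ACS against IL-1ß (12), but 7 for PRP lysate against MSC-CM (9) and 14 for ACS against MSC-CM (13), and the cause was not tested. The share of all genes called moved from 0.292% to 0.0%, 3.09% to 0.482%, 2.21% to 0.413%, 2.61% to 1.44% and 1.23% to 2.78% in the same order. DESeq2 called 11 members for PRP lysate against IL-1ß and 1 for ACS against PRP lysate, where limma called 6 and 0. Of all genes DESeq2 called 4.92% and 0.507%, and limma 3.09% and 0.0946%. The cause was not tested here either. Without the fold limit the counts were 19 for ACS against IL-1ß, 15 for PRP lysate against MSC-CM and 20 for ACS against MSC-CM, beside 3.45%, 4.22% and 1.92% of all genes. With an unadjusted p and the fold limit they were 1 for MSC-CM against IL-1ß and 14 for PRP lysate against MSC-CM (0.361% and 4.14% of all genes).

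Omitting 1 library at a time gave 3 to 9 members for IL-1ß against untreated, 5 to 11 for PRP lysate against IL-1ß, 6 to 12 for ACS against IL-1ß, 5 to 13 for PRP lysate against MSC-CM, 8 to 10 for ACS against MSC-CM, and 0 in every fit for the other pair of comparisons. The shares of all genes ran from 0.043% to 0.301%, 2.36% to 4.03%, 0.886% to 6.06%, 1.47% to 3.42% and 0.456% to 1.07% in the same order. The 6.06% came without IL-1ß replicate 1, where 12 members were called. In the other pair the shares were 0.0% for MSC-CM against IL-1ß and 0.043% to 0.138% for ACS against PRP lysate. Omitting IL-1ß replicate 3 and PRP lysate replicate 1 together, an alternative chosen after seeing the data, gave 10 for PRP lysate against IL-1ß, 17 for PRP lysate against MSC-CM and 1 for ACS against PRP lysate (4.41%, 4.83% and 0.43% of all genes).

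The replicate block over the 12 numbered libraries gave 3 members for IL-1ß against untreated, where the same libraries with no replicate block gave 4. Each of these fits called 0.0516% of all genes. The block gave 5 for PRP lysate against IL-1ß, 6 for PRP lysate against MSC-CM and 0 for MSC-CM against IL-1ß. The shares of all genes were 1.69%, 1.47% and 0.0%. With no block the same libraries gave 5, 8 and 0 (2.38%, 2.05% and 0.0%). The paired fit of the PRP lysate and MSC-CM libraries alone, added after seeing the data, called 15 (3.49% of all genes). A search of promoters for motifs was planned and not run. Of the members with few CPM, GDF15 held 14 to 90 reads per library and STC2 3 to 81.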

Other observations

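Markers of further cell types were also read in these libraries. B cell markers summed to 15.5 to 22.7 CPM in untreated and 24.5 to 47.6 CPM in IL-1ß libraries, and NK cell markers to 146 to 221 CPM and 179 to 404 CPM, with 0 of the 4 tested genes of each list called by limma in any of the 7 comparisons. Platelet markers summed to 3.31 to 5.17 CPM in untreated, 11.6 to 13.7 CPM in IL-1ß and 12.2 to 41.1 CPM in PRP lysate libraries, and PPBP, a platelet chemokine, was higher with IL-1ß than untreated and with PRP lysate than with MSC-CM. Of the 2 platelet genes tested, the other lay below 0 in both comparisons. Of all genes tested, 0.138% and 0.8% were called higher. Endothelial markers summed to 251 to 517 CPM with IL-1ß, 60.7 to 95.4 CPM with PRP lysate and 116 to 151 CPM with ACS, and PECAM1, which leukocytes also express, was lower with PRP lysate and with ACS than with IL-1ß. Of the 3 endothelial genes tested, PECAM1 was the only one below 0 in these comparisons, and 2 lay above 0. Their median log2 fold changes were 0.01 with PRP lysate and 0.20 with ACS. Of all genes tested, 2.02% and 0.98% were called lower. Neutrophil markers summed to 309 to 391 CPM with IL-1ß, 485 to 546 CPM with PRP lysate and 530 to 759 CPM with ACS. The 1 neutrophil gene tested, CSF3R, which monocytes also express, was higher with ACS than with IL-1ß by the adjusted p of limma alone (log2 fold change 0.93, adjusted p = 0.0143), from 340 ± 43.7 to 653 ± 115 CPM. Mesenchymal markers stayed at or below 2.94 CPM in every library.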
